A study of Homo sapiens with 6 samples.

Results

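A set of 10 genes that keep epithelial cells epithelial were followed in MCF10DCIS.com (MCF10DCIS) cells with and without WDR5 silencing: the Grainyhead-like factors GRHL1, GRHL2 and GRHL3, the zinc finger repressors OVOL1 and OVOL2, the splicing regulators ESRP1 and ESRP2, the ETS factor ELF3, and the Krüppel-like factors KLF4 and KLF5. They were listed by name, with no threshold on their values, although earlier results of these data were known, and all 10 were found among the 26334 genes of the table. MCF10DCIS is a human breast cancer line of the MCF10A series that forms lesions resembling ductal carcinoma in situ in mice. The control cells (shLuc, n = 3) carried an shRNA against luciferase and the silenced cells (shWDR5, n = 3) carried shRNAs against WDR5, a WD40 protein of the complexes that methylate histone H3 on lysine 4. Both vectors also encoded TagRFP and puromycin resistance, and both groups were grown in DMEM/F12 with 5% horse serum and 1.05 mM calcium chloride and selected with 3 µg/ml puromycin. As a model, the groups are limited to a single cell line and a single control hairpin. The labels do not say whether the replicates were separate infections or cultures, so the p-values measure the spread between these libraries, which may be technical.

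Epithelial identity is held in part by a circuit of mutually antagonistic factors. GRHL2 sustains transcription of E-cadherin and other junction genes and represses ZEB1, OVOL1 and OVOL2 repress ZEB1 and other drivers of the epithelial-to-mesenchymal transition (EMT), and ZEB1 in turn represses GRHL2, ESRP1 and ESRP2. The ESRP proteins bind pre-mRNA and impose the epithelial choice of exons in genes such as FGFR2 and CD44. ELF3, KLF4 and KLF5 act in the differentiation and renewal of simple and stratified epithelia.

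The libraries held between 38218108 and 57640167 counts. The first principal component of the log2 values separated shLuc from shWDR5 and took 85.8% of the variance, and the second, with 7.85%, set replicate 1 of both groups apart from replicates 2 and 3. WDR5, the targeted gene, stood at 16.0 ± 0.66 RPKM (reads per kilobase of exon, scaled to library size, SD, n = 3) in shLuc and 7.17 ± 0.58 in shWDR5, a log2 fold change of -1.15 ± 0.07 (SE), so the libraries bore out their labels. Of 12 markers of mammary epithelial lineages, KRT8 and KRT18 did not pass the test and the other 10 were higher in shWDR5. Of all genes tested, 26.6% were higher and 29.9% lower. The summed level of the 12 was 5464 to 6063 RPKM in shLuc and 7824 to 8882 in shWDR5. Of 16 markers of other cell types, 8 passed the filter on low counts. Of these, ITGAM was higher and PECAM1 lower in shWDR5. ITGAM had only 32, 10 and 34 counts in the shLuc libraries and 125, 106 and 112 in the shWDR5 libraries. The summed level of the 16 was 8.07 to 9.36 RPKM in shLuc and 7.63 to 8.80 in shWDR5. CD3E and LUM had no count in any library. The part of these markers in the values below was not tested.

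Sequences around the start sites of these genes were taken from RefSeq windows on GRCh38.p14, which held 5 of the 10 genes (GRHL1, GRHL3, ELF3, KLF4 and KLF5). The 250 bases before the start site are shown for GRHL1 and ELF3, which both fell in shWDR5. They are also shown for the first start site of GRHL3, whose window held 2 matches to CAGGTG, where that of ELF3 held 1. Binding at these matches was not tested. Capitals mark matches to CAGGTG (the E-box of ZEB and SNAI factors, which reads CACCTG on the other strand) or to TATAAA, the sequences run 5′ to 3′ along the gene, and all 3 genes lie on the plus strand.
GRHL1 (chr2:9951443-9951692): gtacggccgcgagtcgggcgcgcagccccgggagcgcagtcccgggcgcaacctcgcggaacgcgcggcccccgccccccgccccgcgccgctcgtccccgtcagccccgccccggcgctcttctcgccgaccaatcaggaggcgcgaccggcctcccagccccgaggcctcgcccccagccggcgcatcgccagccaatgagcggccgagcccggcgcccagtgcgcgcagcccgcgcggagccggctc
ELF3 (chr1:202010337-202010586): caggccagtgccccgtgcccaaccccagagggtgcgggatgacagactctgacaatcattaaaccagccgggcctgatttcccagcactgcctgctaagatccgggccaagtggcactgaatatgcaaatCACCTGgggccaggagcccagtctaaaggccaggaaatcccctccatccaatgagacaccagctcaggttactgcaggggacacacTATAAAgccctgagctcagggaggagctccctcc
GRHL3, first start site (chr1:24319107-24319356): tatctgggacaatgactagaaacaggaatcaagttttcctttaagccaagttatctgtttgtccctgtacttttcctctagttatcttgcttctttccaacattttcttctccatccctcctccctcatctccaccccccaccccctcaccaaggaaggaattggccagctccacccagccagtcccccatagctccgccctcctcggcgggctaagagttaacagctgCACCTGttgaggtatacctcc

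The 3 windows, read over 300 bases that reach 50 bases past the start site, differed in make-up. That of GRHL1 was 79.7% G and C with an observed to expected CpG ratio of 1.13, above 98.3% of all 35116 windows. That of ELF3 was 59.0% G and C with a CpG ratio of 0.269, and held an E-box 120 bases and a TATAAA 34 bases before the start site. The first window of GRHL3 held an E-box 21 bases before the start site and another beginning at base 10 after it. The window of the downstream start site of GRHL3 was 50% G and C and held neither CAGGTG nor TATAAA. Which start site these cells use was not tested. On both strands, 20.6% of all windows held CAGGTG and 11.5% held TATAAA. The windows of KLF4 and KLF5 (69.0% G and C, and 40.7% and 71.3% at the start sites of KLF5) held no E-box, and that of the upstream start site of KLF5 held a TATAAA 194 bases before it. No window of these 5 genes held AACCGGTT (a GRHL site, in 0.134% of windows), GGGTGTGG (KLF, 3.28%) or CCGTTA (OVOL, 3.07%). Among 2848 tested genes with CAGGTG in a window, 27.5% were higher and 32.2% lower in shWDR5, beside 26.6% and 29.9% of all genes tested. All genes tested include genes without a window, such as GRHL2, so the sets are not fully alike.

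In control cells, all 10 genes were expressed and their mean levels per length spanned 22.6-fold. ESRP1 was the highest at 56.6 ± 3.2 RPKM (SD, n = 3), above 92.9% of the genes tested, followed by ELF3 at 41.8 ± 1.2, KLF5 at 32.3 ± 6.3, ESRP2 at 21.9 ± 0.81 and GRHL1 at 21.6 ± 1.4 RPKM. GRHL2 followed at 8.38 ± 0.29, OVOL1 at 7.59 ± 0.46, KLF4 at 4.12 ± 0.76, OVOL2 at 2.91 ± 0.33 and GRHL3 at 2.50 ± 0.14 RPKM, the last above 36.7% of the genes tested. ESRP2 and GRHL1 were the only neighbours in this order whose control libraries overlapped. In shWDR5 cells, ESRP1 was again the highest and GRHL3 the lowest, ESRP2 stood clear of GRHL1, KLF4 stood above OVOL1, and the overlapping neighbours were KLF5 with ELF3 and OVOL2 with GRHL3.

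**Figure D1:**
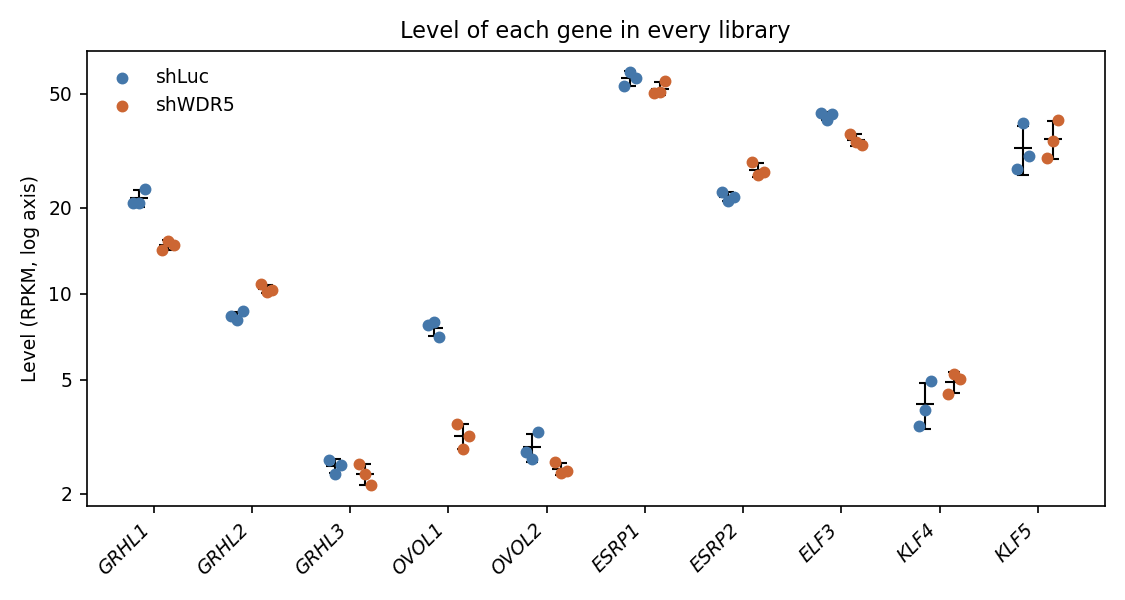
Level of each gene in RPKM (log axis) in the 3 shLuc and 3 shWDR5 libraries, each point a library, with the mean and SD as a black bar. OVOL1 and GRHL1 lay lower and GRHL2 and ESRP2 higher in every shWDR5 library than in any shLuc library, and KLF5 had the largest coefficient of variation in both groups.

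WDR5 silencing left the set without a common direction. By edgeR's quasi-likelihood test with Benjamini-Hochberg adjustment over the 16117 genes tested (threshold 0.05), OVOL1, GRHL1 and ELF3 fell, GRHL2 and ESRP2 rose, and OVOL2, GRHL3, ESRP1, KLF4 and KLF5 did not pass. All 10 had passed the filter on low counts. Thus 3 of 10 were lower, where 29.9% of all genes tested were, and 2 of 10 were higher, where 26.6% of all genes were, which is near the background of a comparison that called 56.5% of genes. The median absolute log2 fold change was 0.27 over the 10 genes and 0.31 over all genes tested, and their median log2 fold change was -0.11 beside -0.01 over all genes. The libraries of the groups did not overlap for 6 of the 10 genes (the 5 called and OVOL2), and for 62.3% of all genes tested. When an absolute log2 fold change of at least 0.6 and a mean above 0.5 RPKM were also required, OVOL1 was the only call among the 10. The same rule called 1143 of the 16117 genes tested higher and 1623 lower.

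**Figure D2:**
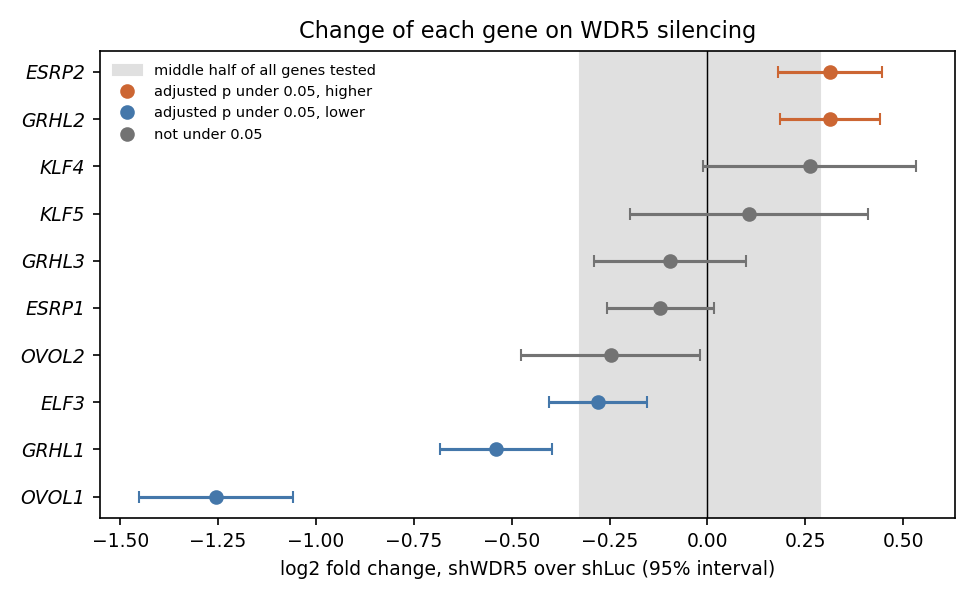
The log2 fold change of each gene, shWDR5 over shLuc, with its 95% interval from the quasi-likelihood fit (3 libraries a group), coloured by call. The grey band holds the middle 50% of the 16117 genes tested, from -0.33 to 0.29; OVOL1 and GRHL1 lay below it, and ESRP2 and GRHL2 just above it.

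The GRHL factors, which bind DNA as dimers and open chromatin at epithelial enhancers, did not move together: GRHL1 fell, GRHL2 rose and GRHL3 did not pass the test. GRHL1, which drives desmosomal cadherin genes in the epidermis (16 exon intervals at chr2:10091792-10142412, hg19), measured 20.7, 20.7 and 23.2 RPKM in shLuc replicates 1 to 3 and 14.2, 15.3 and 14.8 RPKM in shWDR5. Every silenced library was below every control library, and the log2 fold change was -0.54 ± 0.06 (SE, adjusted p = 5.13e-05, edgeR), a level of 0.687 times the control. GRHL2, the family member most tied to E-cadherin (chr8:102504668-102681952), measured 8.35, 8.11 and 8.68 RPKM in shLuc and 10.8, 10.2 and 10.3 RPKM in shWDR5. The groups did not overlap, with every silenced library the higher, and the log2 fold change was 0.31 ± 0.06 (adjusted p = 9.83e-04, edgeR), or 1.24 times the control. GRHL3, which acts in wound closure and barrier formation (chr1:24645812-24690970), measured 2.63, 2.35 and 2.53 RPKM in shLuc and 2.54, 2.34 and 2.15 RPKM in shWDR5. These libraries overlapped, and the 95% interval of the log2 fold change, -0.29 to 0.10, included 0 (adjusted p = 0.379, edgeR).

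The shares within the family are given per library, and those of GRHL1 and GRHL2 were added after their values were seen and carry no test. GRHL1 accounted for 65.4%, 66.5% and 67.4% of the summed GRHL RPKM in the shLuc libraries and for 51.6%, 55.1% and 54.4% in the shWDR5 libraries. The share of GRHL2 was 25.9% ± 0.57 (SD, n = 3) in shLuc and 37.8% ± 1.3 in shWDR5, and neither share overlapped between groups. GRHL3 held 7.72% ± 0.50 in shLuc and 8.50% ± 0.66 in shWDR5, and these libraries overlapped (exact two-sided permutation p = 0.2, adjusted over 4 family shares p = 0.267, where 3 against 3 libraries cannot go below 0.1). Summed over the family, the level was 32.4 ± 1.7 RPKM in shLuc and 27.6 ± 0.29 RPKM in shWDR5.

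OVOL1 had the largest change of the 10. It encodes a zinc finger repressor that promotes exit from proliferation in epithelial progenitors (4 exon intervals at chr11:65554505-65564690), and measured 7.77, 7.95 and 7.07 RPKM in shLuc and 3.52, 2.86 and 3.17 RPKM in shWDR5. The highest silenced library was less than the lowest control library, and the log2 fold change was -1.26 ± 0.09 (adjusted p = 1.61e-06, edgeR), or 0.419 times the control. Of all genes tested, 5.88% had a larger absolute log2 fold change. OVOL2, its paralogue and a repressor of ZEB1 (chr20:18004796-18039832), measured 2.80, 2.65 and 3.28 RPKM in shLuc and 2.59, 2.37 and 2.40 RPKM in shWDR5. Its libraries did not overlap, but the groups lay close, and the log2 fold change of -0.25 ± 0.10 did not pass (adjusted p = 0.0626, edgeR), although it did when shLuc replicate 2 was left out (-0.32, adjusted p = 0.0356, edgeR). Without shLuc replicate 3 it was -0.16 (adjusted p = 0.202, edgeR). The share of OVOL1 in the summed OVOL RPKM was 73.5%, 74.99% and 68.3% in shLuc and 57.6%, 54.8% and 57.0% in shWDR5 (exact two-sided permutation p = 0.1, the smallest that 3 against 3 libraries can give, adjusted p = 0.2). The sum of the pair was 10.5 ± 0.13 RPKM in shLuc and 5.64 ± 0.44 RPKM in shWDR5.

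The ESRP proteins are close paralogues whose targets overlap. ESRP1 (chr8:95653364-95719694) measured 53.2, 59.7 and 56.9 RPKM in shLuc and 50.2, 50.8 and 55.2 RPKM in shWDR5. The groups overlapped, since the highest silenced library exceeded the lowest control library, and the log2 fold change of -0.12 ± 0.06 did not pass (95% interval -0.26 to 0.02, adjusted p = 0.122, edgeR). ESRP2 (chr16:68262450-68270136) measured 22.7, 21.1 and 21.7 RPKM in shLuc and 28.8, 25.9 and 26.7 RPKM in shWDR5. Every silenced library was above every control library, and the log2 fold change was 0.31 ± 0.06 (adjusted p = 1.24e-03, edgeR), or 1.24 times the control. At its end, 17.7% of the exonic bases of ESRP2 are shared with NFATC3 on the opposite strand, and whether the counting used strand is not given in the sources used here. NFATC3 itself had a log2 fold change of -0.02 ± 0.07 (adjusted p = 0.786, edgeR), and was looked up after the overlap was seen. ESRP1 held 72.1% ± 1.9 of the summed ESRP RPKM in shLuc and 65.7% ± 2.0 in shWDR5, with no overlap (exact two-sided permutation p = 0.1, the smallest possible, adjusted p = 0.2). The sum of the pair was 78.4 ± 2.4 RPKM in shLuc and 79.2 ± 2.6 RPKM in shWDR5.

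ELF3, an ETS factor of epithelial differentiation that also responds to inflammatory cytokines (chr1:201979690-201986315), measured 42.7, 40.4 and 42.4 RPKM in shLuc and 36.3, 34.0 and 33.1 RPKM in shWDR5. The groups did not overlap, with the silenced libraries the lower, and the log2 fold change was -0.28 ± 0.06 (adjusted p = 1.67e-03, edgeR), or 0.824 times the control.

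KLF4, which promotes growth arrest and barrier formation (chr9:110247133-110252047), measured 3.46, 3.94 and 4.95 RPKM in shLuc and 4.47, 5.26 and 5.03 RPKM in shWDR5. The control library of replicate 3 lay within the silenced range, and the log2 fold change of 0.26 ± 0.12 did not pass (95% interval -0.01 to 0.53, adjusted p = 0.0931, edgeR). Without that library it was 0.41 (adjusted p = 0.0119, edgeR), and without shLuc replicate 1 it was 0.16 (adjusted p = 0.259, edgeR). KLF5, which sustains proliferation in basal epithelial cells (chr13:73629114-73651680), measured 27.3, 39.4 and 30.3 RPKM in shLuc and 29.9, 34.0 and 40.4 RPKM in shWDR5. Its libraries interleaved, and the 95% interval of the log2 fold change, -0.20 to 0.41, included 0 (adjusted p = 0.538, edgeR). The coefficient of variation of KLF5 was 19.6% in shLuc and 15.2% in shWDR5, and the lowest library of each group was replicate 1, whereas that of ELF3 was 2.92% and 4.80%. KLF4 held 11.5% ± 2.5 of the summed KLF4 and KLF5 RPKM in shLuc and 12.5% ± 1.2 in shWDR5 (exact two-sided permutation p = 0.7, adjusted p = 0.7).

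Among the transcription factors that drive EMT, which these genes oppose, 9 of 12 were tested, 6 rose and 2 fell (26.6% and 29.9% of all genes tested), with a median log2 fold change of 0.41. With the fold and level rule, SNAI2 alone was called higher and none lower. Of the 16117 genes tested, that rule called 1143 higher and 1623 lower. SNAI2 rose from 8.19 ± 0.43 to 19.9 ± 1.9 RPKM (log2 fold change 1.28). ZEB1 rose from 0.189 ± 0.046 to 0.322 ± 0.010 RPKM (0.78), and ZEB2 had 2, 3 and 3 counts in the shLuc libraries and 34, 22 and 31 in the shWDR5 libraries. TWIST2 fell from 2.20 ± 0.32 to 1.49 ± 0.20 RPKM (-0.57). Thus the ZEB transcripts stayed far below the GRHL and ESRP genes in level per length in both groups.

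Among 25 epithelial junction and surface genes, many of them reported GRHL2 targets, 13 fell and 7 rose. These were 52.0% and 28.0% of the list, where 29.9% and 26.6% of all genes tested fell and rose. The median log2 fold change of the list was -0.23. CDH1, the E-cadherin gene, fell from 103 ± 4.2 to 50.3 ± 1.4 RPKM (log2 fold change -1.03, adjusted p = 2.64e-07, edgeR) in the libraries in which GRHL2 rose. The tight junction genes OCLN (-1.38), MARVELD2 (-0.86) and TJP3 (-0.59) also fell, as did EPCAM (-0.33). LSR (0.55) and CLDN1 (0.49), which also belong to tight junctions, rose, as did F11R, RAB25, SPINT1, AP1M2 and CDH3 (0.26 to 0.31). These rising genes were named after their values were seen. Among 14 other epithelial transcription factors, 12 were tested, 6 fell and 3 rose. TFCP2L1, a relative of the GRHL genes, fell by 0.75 on the log2 scale, TFAP2C fell by 0.87 and ZNF750, a factor of terminal differentiation, fell by 1.07, while PRDM1 rose by 0.75.

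The splicing side showed no common direction. Beside the counts in this paragraph, 26.6% of all genes tested were higher and 29.9% lower in shWDR5. Of 19 other splicing regulators with a role in EMT, 4 rose and 5 fell, including RBM47 (log2 fold change -0.52), HNRNPF (-0.53) and PCBP1 (-1.10) on the falling side and CELF1 (0.60) and CELF2 (1.42, below 0.1 RPKM in both groups) on the rising side. Of 20 genes with ESRP-dependent exons, 5 rose and 4 fell in total level, among them ARHGEF11 (0.50), EXOC7 (0.44), ARHGAP17 (0.29) and RPS24 (-0.33), and FGFR2 measured 3.86 ± 0.14 RPKM in shLuc and 3.54 ± 0.18 in shWDR5 (adjusted p = 0.15, edgeR). Gene-level counts do not tell which exons were used. Of 18 differentiation genes downstream of GRHL factors, KLF4 or OVOL1, 15 were tested, 5 rose and 5 fell. PADI1 (-2.67), TGM5 (-2.43) and IVL (-0.48) fell. SPRR3 (1.68), KRT4 (1.27) and TGM1 (0.76), the transglutaminase gene driven by GRHL3, rose from low levels. These risers measured 0.425, 0.236 and 0.533 RPKM in shLuc and 1.39, 0.555 and 0.920 RPKM in shWDR5. SPRR2A, named after its values were seen, rose from 17.6 to 41.6 RPKM (1.24).

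**Figure D3:**
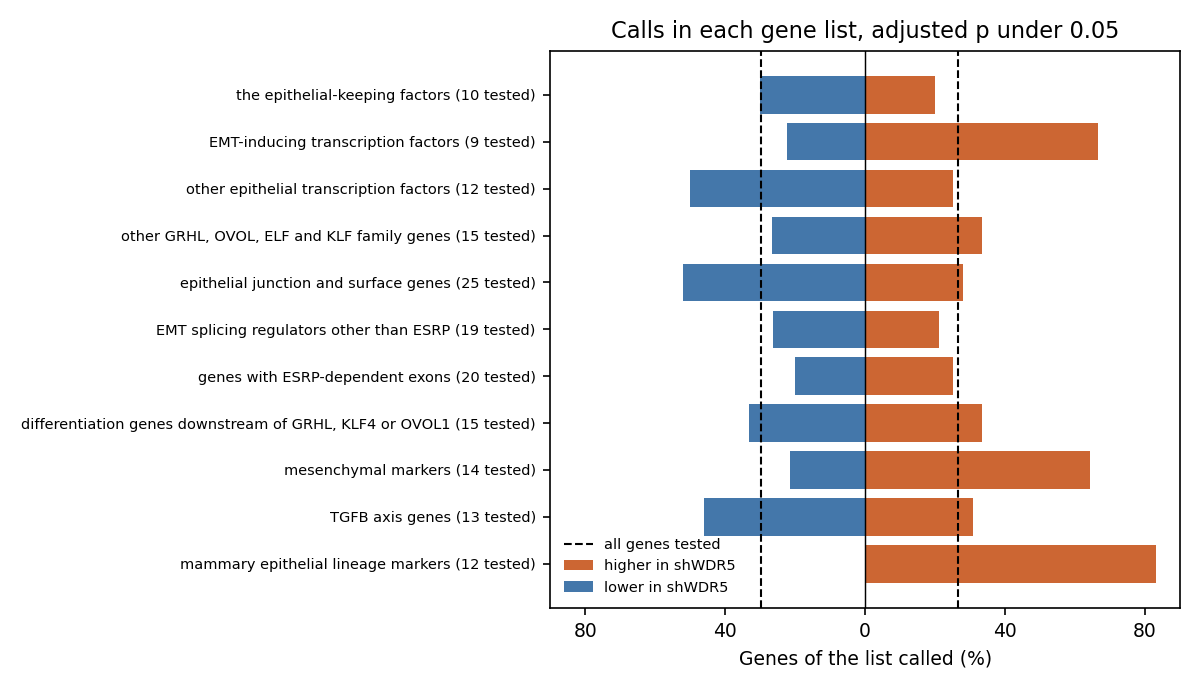
Percent of the tested genes of each list that were called lower (to the left) or higher (to the right) in shWDR5, with the shares over all genes tested, 29.9% lower and 26.6% higher, as dashed lines. The epithelial-keeping factors lay near both lines, and the EMT-inducing factors had 66.7% higher and 22.2% lower.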

How the data were processed

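Poly-A RNA libraries of 3 shLuc and 3 shWDR5 MCF10DCIS samples were sequenced on an Illumina HiSeq. Per the labels, the authors used TopHat2 (2.1.0), hg19 and featureCounts, and deposited raw counts per gene with exon positions and lengths. A second deposited table, with the authors' own fold changes and p-values from edgeR (3.2.2), was not used here. Counts were normalized by TMM and filtered with filterByExpr, and 16117 of 26334 genes were tested with edgeR 4.0.16 (glmQLFit, glmQLFTest) in R 4.3.3, without covariates. The analysis was tested on simulated data in which far fewer genes changed than were called here. That simulation does not measure accuracy at this number of calls. RPKM used the deposited lengths and TMM library sizes. Intervals cover these libraries' spread. Alternatives were RLE and upper-quartile factors, other filters, DESeq2 1.42.0, edgeR's exact test, limma-voom 3.58.1, a replicate block, a fold rule and leaving out libraries. Family shares were compared by exact permutation. The genes and lists were chosen with earlier results of these data known. Named were all 10 genes, WDR5, up to 4 called genes of largest change per list, and CDH1, EPCAM, VIM, ZEB1, ZEB2, SNAI2, RBM47, FGFR2, TGM1, IVL and TGFB1. Replicates differed by more than sampling noise (chi-square per degree of freedom 7.11 to 18.2). Depth was 38218108 to 57640167 counts per library.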

Additional observations from a re-analysis of the deposited data

How the results depend on the processing

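The calls for GRHL1, GRHL2, OVOL1, ESRP2 and ELF3 kept their direction and their side of the threshold under all 15 alternative fits, as did 143 of 150 checks of single genes. Requiring also an absolute log2 fold change of 0.6 and over 0.5 RPKM left fewer calls by construction. Of the 16117 genes tested, 1143 were then higher and 1623 lower. The rule left 0 of the 10 genes higher and 1 lower. Higher and lower calls were 1 and 0 among the 9 tested EMT-inducing factors and 1 and 4 among the 12 tested other epithelial factors. They were 1 and 1 among the 15 tested GRHL, OVOL, ELF and KLF relatives and 0 and 3 among the 25 junction genes. The 19 splicing regulators had 0 and 1, and the 20 genes with ESRP-dependent exons 0 and 0. The 15 tested differentiation genes had 3 and 3, and the 13 TGFB genes 2 and 1. The 14 tested mesenchymal markers had 7 and 1, and the 12 lineage markers 7 and 0. The 8 tested markers of other cell types had 0 and 1. KLF4 passed with upper-quartile factors (log2 fold change 0.30). A filter of CPM above 1 left 3 differentiation genes higher, and no filter gave 2 markers of other cell types higher.

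Same-numbered replicates of the groups correlated in their deviations from the group means at r = 0.636, 0.0815 and 0.242 across genes for replicates 1, 2 and 3, and not every library correlated best with its own number, so the numbers were not taken to pair the samples. With the replicate number as a block, 4901 genes were higher and 5511 lower, and of the 10 genes 3 were higher and 5 lower. OVOL2 (-0.24, adjusted p = 0.0476, edgeR), ESRP1 (-0.12, adjusted p = 0.0328) and KLF4 (0.27, adjusted p = 0.0131) then passed. The block gave 10 splicing regulators, 1 lineage marker and 2 markers of other cell types as lower.

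Leaving out libraries moved OVOL2 over -0.32 to -0.16, KLF4 over 0.16 to 0.41 and KLF5 over -0.015 to 0.27, the last negative without shWDR5 replicate 3. It moved the KLF4 share difference over -0.18 to 2.30 points, negative without shLuc replicate 2. Lower calls ranged over 1 to 3 for the EMT-inducing factors, 1 without replicate 1 of both groups (chosen after seeing the data), 2 to 4 for the relatives, 2 without replicate 2 of shLuc or shWDR5, and 1 to 2 for the markers of other cell types, 2 without shLuc replicate 1 or 3 or shWDR5 replicate 3. Apart from the fold rule, the cause of these moves was not tested. On the TPM scale the control levels were 54.9 for GRHL1, 21.4 for GRHL2, 6.37 for GRHL3, 19.4 for OVOL1, 7.41 for OVOL2, 144.3 for ESRP1, 55.7 for ESRP2, 106.6 for ELF3, 10.5 for KLF4 and 82.6 for KLF5.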

Other observations

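Other members of the same gene families were measured alongside. Of 17 relatives of the GRHL, OVOL, ELF and KLF genes, 15 were tested, 5 rose and 4 fell (26.6% and 29.9% of all genes tested), with a median log2 fold change of 0.14. KLF11, a TGFB-inducible repressor, fell from 9.22 ± 0.64 to 5.03 ± 0.30 RPKM (SD, n = 3, log2 fold change -0.87), while KLF16 (0.64), UBP1 (0.47), which is related to the GRHL genes, and KLF10 (0.46) rose. Among 18 mesenchymal markers, 14 were tested, 9 rose and 3 fell (64.3% and 21.4% of those tested). FN1, the fibronectin gene, rose from 122.6 ± 6.6 to 751.9 ± 77 RPKM (log2 fold change 2.62) and VIM from 180.5 ± 19 to 417.7 ± 12 RPKM (1.21), with 30.0% of the exonic bases of VIM shared with VIM-AS1. MMP9 (3.68), TAGLN (2.24) and CDH2 (1.74), the N-cadherin gene, also rose. TNC fell from 54.1 to 29.7 RPKM (-0.87), CDH11 (-0.58) and COL1A1 (-0.50) fell, and SPARC, at 224.6 and 233.1 RPKM, did not pass the test (0.05), these 4 being named after their values were seen. Of 13 genes of the TGFB axis, 4 rose and 6 fell (30.8% and 46.2%). TGFB1 fell from 9.04 ± 0.62 to 5.56 ± 0.40 RPKM (-0.70), while TGFBR1 (0.60), SKIL (0.69) and SMAD7 (0.52) rose. All calls are edgeR adjusted p under 0.05 over all genes tested. Among the lineage markers, KRT14 (1.29), KRT6A (1.83), KRT19 (1.83) and MUC1 (1.28) had the largest changes.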
